A study of Mus musculus with 20 samples.

Results

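The neuronal intermediate filaments are described here through their 5 subunit genes, Nefl, Nefm, Nefh, Ina and Prph, which were chosen by name as the genes of this protein family that neurons assemble into filaments. All 5 were present among the 19463 genes measured in the study. Poly-A RNA was taken from the whole brain of 20 male C57BL/6J mice. Juvenile mice of 3 weeks (P21) and adult mice of 10 weeks (P70) were used, and each age had 5 Katnal2-KO and 5 wild-type (WT) mice. Katnal2 encodes a katanin-like protein of the family of microtubule-severing enzymes, and the design asks whether its loss changes brain transcripts and whether the change differs between juvenile and adult mice. The KO mice descended from the EUCOMM allele Katnal2tm1a(EUCOMM)Wtsi. Its gene-trap cassette was removed with Protamine-Flp, and a coding exon was then excised by exposing 2-cell embryos to HTNC, a cell-permeable Cre recombinase, so the deletion was not restricted to a cell type. WT mice shared the C57BL/6J background, and littermates of mixed genotype were housed together. Each library came from a whole brain, so fewer cells of a type and less RNA per cell cannot be told apart.

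Neurofilaments are the intermediate filaments of neurons and the main cytoskeletal polymer of large axons, where they set axon calibre and with it conduction velocity. The light chain (Nefl) forms the filament core, the medium (Nefm) and heavy (Nefh) chains carry long tails that project as side arms, alpha-internexin (Ina) co-assembles with them in the central nervous system, and peripherin (Prph) is the subunit of neurons that project to the periphery and of some brainstem neurons. Developing neurons are known for relying on Ina, Nefl and Nefm, with Nefh joining as axons mature, and the proteins themselves turn over slowly, so that transcript levels describe production and not the standing polymer.

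The 5 subunits share a central rod and differ in their heads and tails. In the whole principal transcripts, read from GRCm38 with GENCODE M21 models, no 31-base word was common to any pair except Nefm and Prph, which shared 5 such words. The tail of Nefh carries tandem lysine-serine-proline repeats that neuronal kinases phosphorylate. Exact repeats set its coding sequence apart from those of the other members, and repeats that have diverged were not searched. Its most frequent in-frame 18-base word occurred 9 times in the 3270 coding bases of Nefh and 0 times in the coding sequence of Nefl, Nefm, Ina and Prph. In those 4 genes no in-frame 18-base word occurred more than 1 time. The stretch of 162 coding bases that holds 5 of the copies, in exon 4 (chr11:4940482-4940643, minus strand), is shown with the copies in capitals.
Nefh: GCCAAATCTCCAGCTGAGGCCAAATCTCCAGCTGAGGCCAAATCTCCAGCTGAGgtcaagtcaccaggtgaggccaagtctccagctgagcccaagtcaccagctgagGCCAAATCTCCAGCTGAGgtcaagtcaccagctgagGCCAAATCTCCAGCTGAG

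On chromosome 14, Nefl lies within the annotated span of Nefm, and the genes are read from opposite strands. A transcript of Nefm, Nefm-202, has a last exon that overlaps the first exon of Nefl on the other strand. The overlap is 1108 bases, 32.8% of the Nefl transcript and 30.1% of Nefm-202. The library kit did not mark strand, so reads from these bases cannot be told apart between both genes. Nefh on chromosome 11 (3994 bases of transcript), Ina on chromosome 19 (3240 bases) and Prph on chromosome 15 (1863 bases) had no such overlap with another member.

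Values are normalized read counts, and all mice were scaled together, so that both ages are on the same scale. The labels name no library batch, so a batch that went along with age cannot be told apart from age. The spacing of low values put the libraries at 23.4 to 35.7 M assigned fragments (M, mega), with 26.1 to 35.7 M at P21 and 23.4 to 28.4 M at P70. The replicate 5 mice of both P70 groups stood apart from the others: their mean Spearman correlation with their group mates across genes was 0.976 (KO) and 0.983 (WT), against 0.989 to 0.991 for the other P70 mice and 0.992 to 0.995 at P21. Members and gene lists at P70 are therefore given with and without these 2 mice wherever a call or sign changed. Katnal2 itself ranged from 78.1 to 96.0 normalized counts in P21 KO and from 99.3 to 115 in P21 WT mice, without overlap. At P70 it ranged from 95.1 to 125 in KO and from 101.3 to 141 in WT mice, which overlapped. The log2 differences were -0.27 and -0.21 (adjusted p = 1 at both ages by limma). The count covers the whole gene, so transcripts that lack only the excised exon are still counted, and the value does not test the deletion. Of the 10 pan-neuronal markers, 0 were at 0 in any group, and their summed level was 227498 to 257846 normalized counts in the 20 mice.

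Per kilobase of transcript, the members kept the order Nefl, Nefm, Ina, Nefh, Prph in 20 of 20 mice. In WT mice at P21, the level was 4007 ± 224 normalized counts per kb for Nefl, 2920.3 ± 253 for Nefm, 1954 ± 40.1 for Ina, 908 ± 109 for Nefh and 70.3 ± 24.1 for Prph (SD, n = 5). Nefl thus made up 40.7% ± 0.49 of the summed per-kb level of the 5 genes, Nefm 29.6% ± 0.94, Ina 19.9% ± 1.102, Nefh 9.18% ± 0.60 and Prph 0.706% ± 0.22. In WT mice at P70 the shares were 39.9% ± 2.69 for Nefl, 26.9% ± 1.34 for Nefm, 22.3% ± 0.72 for Ina, 10.3% ± 1.11 for Nefh and 0.584% ± 0.23 for Prph. Within each group the ranges of neighbouring genes in this order did not overlap, except those of Nefm and Ina at P70. There the lowest Nefm mouse had 2363 in WT and 2436 in KO, and the highest Ina mouse 2493 in WT and 2639 in KO. The members also differed in how far mice of a group lay apart. The coefficient of variation over the 4 groups was 1.88% to 5.60% for Nefl, 2.06% to 11.5% for Ina, 4.496% to 20.5% for Nefm, 6.05% to 30.9% for Nefh and 11.8% to 65.1% for Prph.

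**Figure D1:**
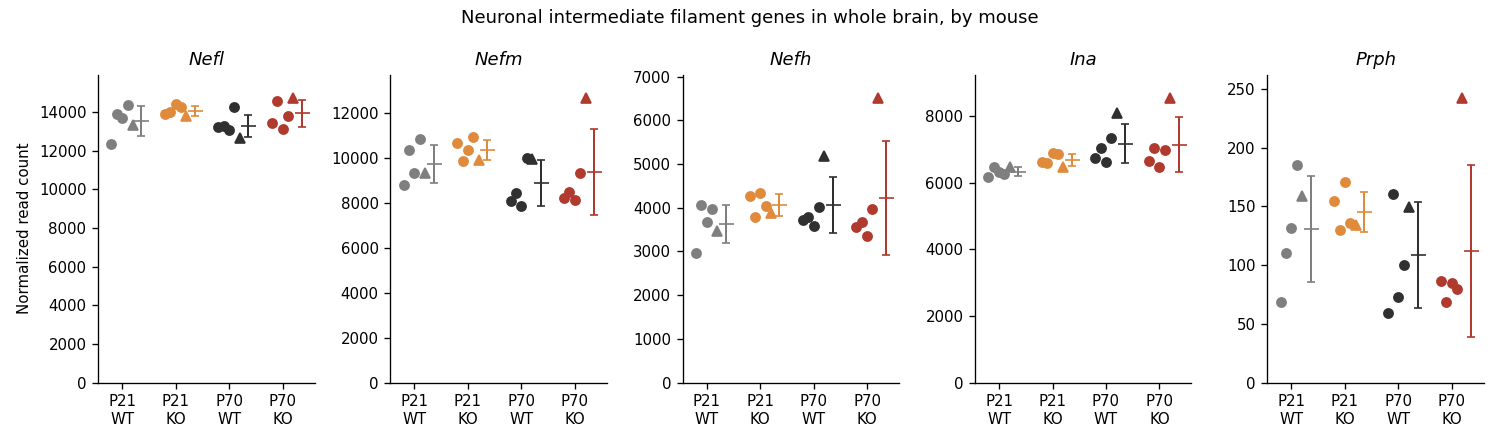
Normalized read count (y axis, from 0, a scale for each gene) of Nefl, Nefm, Nefh, Ina and Prph in the 5 mice of each group, with replicate 5 as a triangle and the mean ± SD beside the points. Nefl stayed between 12377 and 14761 in all 20 mice, and the P70 KO replicate 5 mouse was the highest of its group for all 5 genes.

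By limma on log2(normalized count + 1), a fit over all genes with Benjamini-Hochberg adjustment, 0 of the 5 members passed an adjusted p of 0.05 between KO and WT at P21, against 0.0% of the 17610 genes tested. At P70 the count between KO and WT was also 0 of 5, against 0.0% of 17613 genes. With age, 0 of 5 changed in WT, where 9.32% of 17630 genes did, and 0 of 5 in KO, where 8.32% of 17641 genes did. The age effect did not differ detectably between genotypes for any member, with 0 of 5 past the threshold of the interaction term, against 0.0% of 17637 genes. At an unadjusted p under 0.05 the counts were 1 of 5 at P21 (Nefh), 0 of 5 at P70, 1 of 5 with age in WT (Ina), 0 of 5 with age in KO and 0 of 5 for the interaction. Of all genes, 2.44%, 1.13%, 24.5%, 22.7% and 1.68% had such a p in these comparisons. Without both P70 replicate 5 mice, introduced above, 0 of 5 were called between genotypes at P70 (0.00567% of 17650 genes) and with age in WT (17.0% of 17644 genes), and 2 of 5 with age in KO (21.3% of 17654 genes). The age comparisons and the genotype comparisons share mice, and the values for each are given side by side below.

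**Figure D2:**
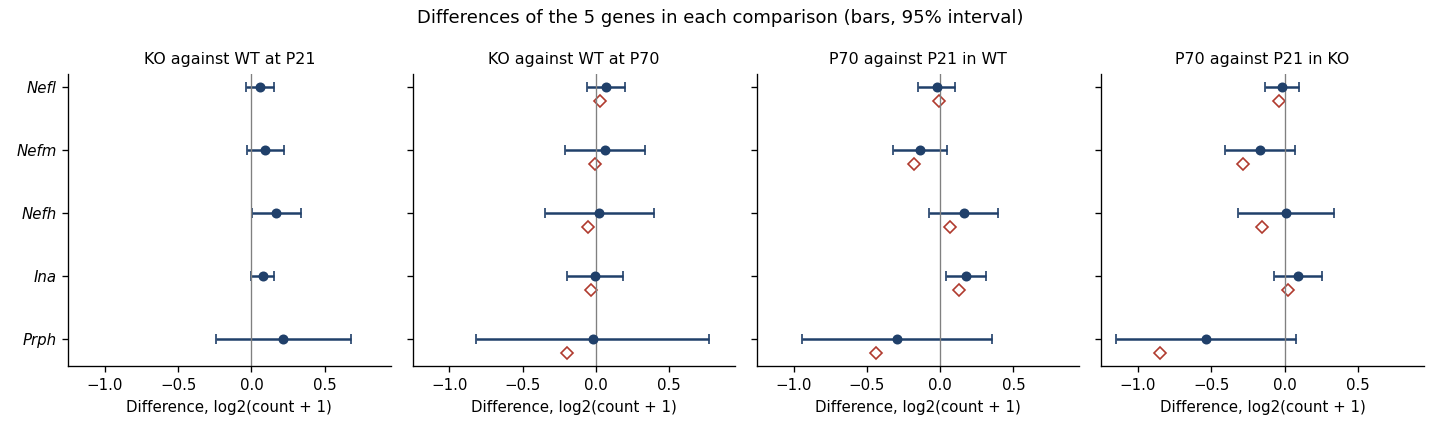
Difference in log2(normalized count + 1) for each gene in the comparisons of genotype and age, as filled points with the 95% interval of limma, and as open diamonds after both P70 replicate 5 mice were left out. The interval of Prph was the widest in every comparison, and the diamonds of Nefm (-0.28) and Prph (-0.85) in the KO age comparison were the only ones past the threshold.

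Nefl, the core subunit, had the smallest coefficient of variation of the 5 genes in 3 of 4 groups, and Ina had it in P21 WT mice. In P21 WT mice it was at 12377, 13924, 13685, 14398 and 13336 normalized counts (replicates 1 to 5), and in P21 KO mice at 13904, 14012.5, 14426, 14283 and 13789. In P70 WT mice it was at 13241, 13266, 13074, 14252 and 12689, and in P70 KO mice at 13447, 14559.8, 13121.5, 13825 and 14761. The groups overlapped in every comparison, and the 5 P21 KO mice lay closest together. The log2 difference between KO and WT was 0.06 at P21 (95% interval -0.04 to 0.15) and 0.07 at P70 (-0.06 to 0.20). Between P70 and P21 it was -0.03 in WT (-0.15 to 0.10) and -0.02 in KO (-0.13 to 0.10).

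Nefm, the medium chain with a long side arm, was at 8803, 10353, 9342, 10859 and 9324 in P21 WT mice and at 10697, 9891, 10382, 10951 and 9928 in P21 KO mice. At P70 it was at 8114, 8448, 7877, 10013.5 and 9986 in WT mice and at 8215, 8507, 8121, 9329 and 12705 in KO mice. The first 3 replicates of both P70 groups lay below every P21 mouse, whereas replicates 4 and 5 did not, although KO replicate 4 was below every P21 KO mouse. The log2 difference with age was -0.14 in WT (standard error 0.09, adjusted p = 0.364 by limma) and -0.17 in KO (standard error 0.11, adjusted p = 0.417 by limma). Without both P70 replicate 5 mice, Nefm fell by 0.28 on the log2 scale in KO (adjusted p = 0.00197 by limma). In that setting 10.7% of 17654 genes were called lower, and the KO mouse left out had the highest Nefm value of its group. In WT the value without the replicate 5 mouse was -0.18 (adjusted p = 0.136 by limma). Between genotypes, Nefm differed by 0.09 at P21 and by 0.06 at P70, and the P70 value was -0.01 without these 2 mice.

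Nefh, the heavy chain, was at 2975, 4071, 3665, 3962 and 3460.5 in P21 WT mice and at 4278, 3781, 4349, 4030.1 and 3883 in P21 KO mice. The lowest WT mouse, replicate 1, lay well below the others, and 2 of 5 KO mice lay above every WT mouse. KO was higher by 0.17 on the log2 scale (95% interval 0.0036 to 0.34, p = 0.0459, adjusted p = 1 by limma, and p = 0.0794 by the exact two-sided permutation test). Leaving out 1 mouse at a time gave 0.10 (without WT replicate 1) to 0.21. In the same comparison 4 of 15 genes of fast-firing and large-calibre neurons, 4 of 13 Hox genes and 5 of 5 blood genes had an unadjusted p under 0.05 (0 of each called by limma), with median log2 differences of 0.10, 0.81 and -0.75. Genes entered by their mean over both genotypes, so Hox genes of low level could enter through the higher KO values alone. A higher KO value was thus favoured among the Hox genes tested. The summed level of the fast-firing list was 86006 to 94839 normalized counts in WT and 92981 to 100091 in KO mice, that of the Hox list 43 to 406 and 163 to 740, and that of the blood list 24464 to 61276 and 12038 to 30949. Their part in the P21 differences of Nefh and Ina was not tested. At P70 it was at 3710.1, 3797, 3589.6, 4025 and 5191 in WT mice and at 3560.02, 3684, 3363, 3976 and 6523 in KO mice. In both groups the 4 other mice lay close together, and replicate 5 stood above all other mice of the study. The log2 difference with age was 0.16 in WT (adjusted p = 0.402 by limma) and 0.01 in KO (adjusted p = 0.978 by limma). Without the 2 mice these became 0.07 (adjusted p = 0.613 by limma) and -0.16 (adjusted p = 0.0745 by limma). The KO value lay near 0 and also turned below 0 when P21 KO replicate 2 or replicate 5 alone was left out.

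Ina, the alpha-internexin gene, was at 6159, 6457, 6326, 6250.45 and 6456 in P21 WT mice and at 6619, 6589, 6886, 6849.7 and 6457 in P21 KO mice. The groups did not overlap, but the lowest KO mouse (6457.29) and the highest WT mouse (6456.85) differed by less than 1 count. KO was higher by 0.08 on the log2 scale (95% interval -0.0015 to 0.16). Limma gave p = 0.0539 and an adjusted p of 1, and exact permutation of the mice, two-sided, gave 0.00794, the lowest p that 5 against 5 mice allow. Of all genes tested, 0.46% had groups that did not overlap at P21. At P70 Ina was at 6735, 7042, 6609.9, 7349 and 8077 in WT mice and at 6653, 7049, 6482, 6968 and 8552 in KO mice, which overlapped (log2 difference -0.01). Each of the 5 P70 WT mice lay above each of the 5 P21 WT mice. Of all genes, 10.8% had WT groups that did not overlap between the ages. The difference of 0.17 (standard error 0.06) had p = 0.0155 and an adjusted p of 0.103 by limma, and the exact permutation p was 0.00794. Without the replicate 5 mouse it was 0.13 (adjusted p = 0.0600 by limma). In KO mice the age difference was 0.09 (standard error 0.07, adjusted p = 0.535 by limma), and 0.02 without replicate 5.

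Prph, the peripherin gene, was the scarcest member, with 51 to 249 fragments per mouse, which alone gives a counting error of 6.33% to 14.0%. It was at 68.7, 109.9, 132, 186 and 159 normalized counts in P21 WT mice and at 155, 130.04, 171, 136 and 134 in P21 KO mice. At P70 it was at 59.1, 160.5, 73.1, 99.99 and 149.8 in WT mice and at 86.2, 68.8, 84.8, 79.2 and 243 in KO mice. WT mice ranged widely at both ages, and 4 of 5 P70 KO mice lay below every P21 KO mouse while replicate 5 lay above them all. The log2 difference with age was -0.53 in KO (standard error 0.28, adjusted p = 0.291 by limma) and -0.30 in WT (standard error 0.30, adjusted p = 0.591 by limma). Without both P70 replicate 5 mice, Prph fell by 0.85 on the log2 scale in KO (standard error 0.12, adjusted p = 0.000396 by limma), whereas in WT it was lower by 0.44 with an adjusted p of 0.358. That made 2 of 5 members called lower with age in KO (Nefm and Prph), where 10.7% of 17654 genes were. The KO mouse left out was the highest of its group for both genes, so leaving it out lowers both values. This setting was chosen with the data known. Between genotypes Prph differed by 0.22 at P21, which became 0.0059 to 0.36 with 1 mouse left out, and by -0.02 at P70. The interaction term for Prph without these mice was -0.42 (standard error 0.36, adjusted p = 1 by limma), so a difference between genotypes in the age effect was not detectable.

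Subunit ratios within a mouse do not depend on how that mouse was scaled as a whole. Ina to Nefl, as a ratio of normalized counts per kb, was 0.519, 0.484, 0.482, 0.453 and 0.505 in P21 WT mice and 0.531, 0.554, 0.527, 0.538 and 0.664 in P70 WT mice. It was 0.497, 0.491, 0.498, 0.500283 and 0.489 in P21 KO mice and 0.516, 0.505, 0.515, 0.526 and 0.604 in P70 KO mice. Every P70 mouse lay above every P21 mouse of its genotype. The mean rose from 0.489 ± 0.025 to 0.563 ± 0.058 in WT and from 0.495 ± 0.0050 to 0.533 ± 0.040 in KO (SD, n = 5). The log2 differences of 0.20 and 0.11 each had p = 0.00794 by the exact two-sided permutation test and 0.0476 after adjustment over the 12 ratio tests. The result was close to the threshold: it was lost in both genotypes under quantile normalization (adjusted p = 0.190 in WT and 0.381 in KO by the exact test). Without both replicate 5 mice the difference was 0.14 in WT (adjusted p = 0.0635 by the exact test) and 0.059 in KO (adjusted p = 0.0476 by the exact test), with no overlap between the ages in either. The P70 groups, which overlapped with all mice (-0.08), then lay apart, with KO lower by 0.060 on the log2 scale. The exact permutation p was 0.0286, the lowest that this number of mice allows (adjusted p = 0.0762). Both mice left out had the highest ratio of their group, and this setting was chosen with the data known.

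The other ratios passed no threshold with all mice. Nefm to Nefl was 0.728 ± 0.030 in P21 WT and 0.746 ± 0.030 in P21 KO mice, and at P70 the KO mean was 0.679 ± 0.11, with replicate 5 at 0.873 and the other KO mice between 0.592 and 0.684. The log2 difference with age was -0.11 in WT and -0.15 in KO (adjusted p = 0.349 for both by the exact permutation test). Without both replicate 5 mice it was -0.24 in KO, with an adjusted p of 0.0476 by the exact test. Nefh to Nefl was 0.226 ± 0.016 in P21 WT, 0.244 ± 0.013 in P21 KO, 0.259 ± 0.049 in P70 WT and 0.254 ± 0.068 in P70 KO mice. Between genotypes at P21 it differed by 0.11 on the log2 scale (exact permutation p = 0.0873, adjusted p = 0.310), and 4 of the 5 mice in each P70 group lay between 0.214 and 0.243.

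**Figure D3:**
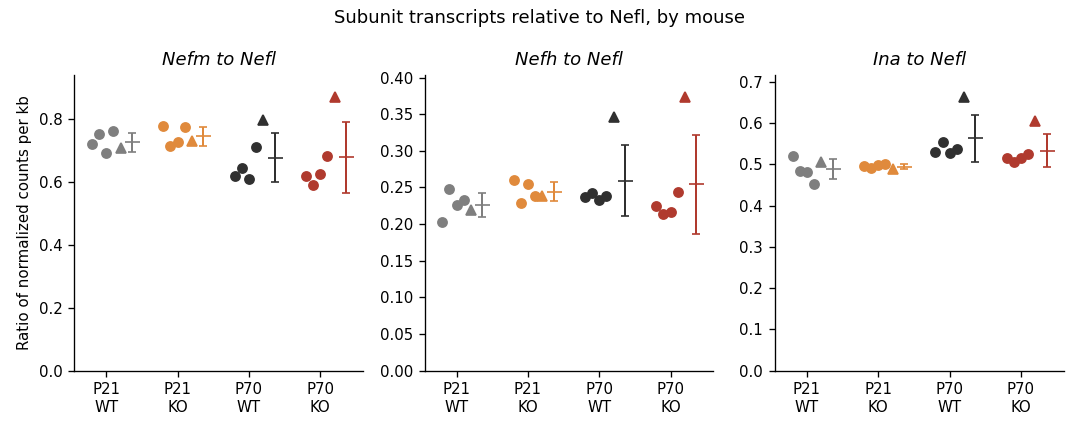
Ratio of normalized counts per kb (y axis, from 0) of Nefm, Nefh and Ina to Nefl in each mouse, with replicate 5 as a triangle and mean ± SD beside the points. Ina to Nefl was at 0.453 to 0.519 in P21 WT and 0.527 to 0.664 in P70 WT mice, and the P70 replicate 5 mice were highest in all 3 panels.

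Within groups, Nefm, Nefh and Ina moved together from mouse to mouse. How closely these genes followed each other, and how closely Nefl and Prph followed them, depended on the P70 replicate 5 mice. Deviations from the group mean of log2(normalized count + 1) were correlated over the 20 mice, with permutation within groups and adjustment over the 10 pairs. Nefm and Nefh had r = 0.92 and rho = 0.93 (permutation p = 1e-05, the smallest that 100000 permutations can give, adjusted p = 0.0001 for both). Nefh and Ina had r = 0.91 and rho = 0.82 (adjusted permutation p = 0.00055 and 0.00115), and Nefm and Ina r = 0.88 and rho = 0.83 (adjusted permutation p = 0.00147 and 0.0015). Leaving out the 2 mice farthest from the median gave r = 0.91, 0.71 and 0.77 for these pairs. Without both P70 replicate 5 mice r was smaller, at 0.80, 0.58 and 0.67. Prph followed Nefh (r = 0.78, rho = 0.72), Nefm (r = 0.73, rho = 0.66) and Ina (r = 0.72, rho = 0.63) with adjusted permutation p between 0.0119 and 0.0189. Without the 2 farthest mice these were at r = 0.57, 0.61 and 0.44, and without the replicate 5 mice at 0.49, 0.41 and 0.34.

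Nefl took less part in this shared variation when all mice were counted. Its r was 0.60 with Nefm (adjusted permutation p = 0.0189), 0.49 with Nefh (0.072), 0.40 with Ina (0.143) and 0.41 with Prph (0.143). By rank it was closer, with rho = 0.60, 0.55, 0.58 and 0.36 (adjusted permutation p = 0.0185, 0.03, 0.0185 and 0.176). Without the 2 mice farthest from the median of Nefl, r was 0.54, 0.47, 0.41 and 0.31. Here the P70 replicate 5 mice acted the other way. In WT, replicate 5 was the highest mouse of its group for Nefh and Ina and the lowest for Nefl, and without both mice r was 0.77 with Nefm, 0.81 with Nefh and 0.69 with Ina. All 10 relations come from the same 20 libraries and share their scaling.

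**Figure D4:**
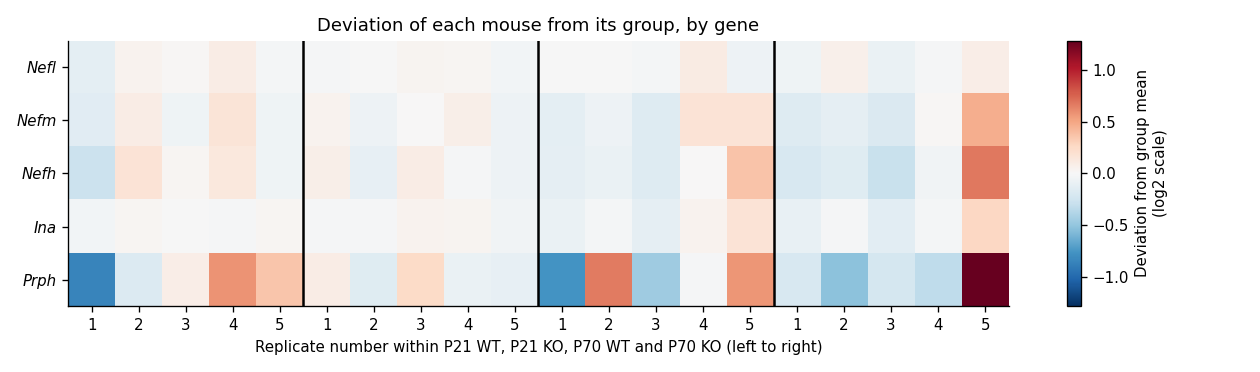
Deviation of each mouse from its group mean in log2(normalized count + 1) (colour, red above and blue below), with a row for each gene and a column for each of the 20 mice by group. The last column, P70 KO replicate 5, is red for all 5 genes, and the Prph row shows the strongest colours.

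The P70 replicate 5 mice were the highest of their groups for Nefh and Ina in both genotypes, and the KO mouse also for Nefm, Prph and Nefl. In KO, Nefm was at 12705 against 8121 to 9329 in the other 4 mice, Nefh at 6523 against 3363 to 3976, Ina at 8552 against 6482 to 7049 and Prph at 243 against 68.8 to 86.2. In WT, Nefh was at 5191 against 3589.6 to 4025 and Ina at 8077 against 6609.9 to 7349, whereas Nefm and Prph lay within the range of the group and Nefl was the lowest. These libraries also had the highest summed pan-neuronal markers of their groups (257846 in KO and 248948 in WT) and the highest sum of 15 genes of fast-firing and large-calibre neurons (113185 and 108117). Their sums of 8 cerebellar genes (36682 and 43193) and of 8 astrocyte genes (99115 and 108107) were the lowest of their groups, and the sum of 8 choroid plexus genes was the highest (27352 and 27424). They held 28.4 and 28.0 M fragments, against 23.4 to 24.6 M in the other P70 mice. The part of these differences in the values of the members was not tested.

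Prph varied together with the summed level of 14 Hox genes, which mark hindbrain and spinal cord. The Hox sum was 43 to 406 normalized counts in P21 WT, 163 to 740 in P21 KO, 50 to 241 in P70 WT and 33 to 389 in P70 KO mice. Over the 20 mice, the within-group deviations of Prph and of the Hox sum had r = 0.78 and rho = 0.75 (permutation p = 6e-05 and 0.00034, adjusted p = 0.0003 and 0.0017 over the 5 members). This relation was chosen after the values were seen. It was 0.72 without the 2 mice farthest from the median Hox deviation and 0.73 without both P70 replicate 5 mice. For Nefh r was 0.65 (rho 0.70, adjusted permutation p = 0.0109), for Nefm 0.64 (rho 0.63, adjusted permutation p = 0.0125), for Ina 0.49 (0.0619) and for Nefl 0.32 (0.262). In KO mice without replicate 5, 7 of the 12 Hox genes tested were called lower with age, against 10.7% of 17654 genes. In WT mice without replicate 5 the count was 0 of 6. Genes entered by their mean over both ages, so Hox genes of low level could enter through the higher P21 KO values alone. A fall was thus favoured among them, and this count is no separate support for the fall of Prph. Of the markers of cholinergic motor neurons, which use peripherin, 7 were measured with a summed level of 658 to 1209, and of those of peripheral sensory neurons 6 with 112 to 184. The part of hindbrain tissue in the Prph values was not tested.

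**Figure D5:**
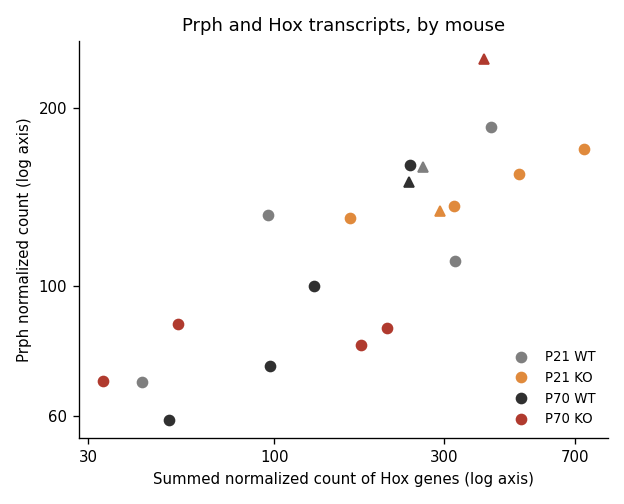
Prph normalized count (y axis, log) against the summed normalized count of 14 Hox genes (x axis, log) in the 20 mice, coloured by group, with replicate 5 as a triangle. The lowest Prph value, 59.1, belonged to a P70 WT mouse with a Hox sum of 50, and the highest, 243, to the P70 KO replicate 5 mouse with 389.

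The genes whose deviations were most like those of each member, out of 12789 with a mean of at least 100 normalized counts, differed between members. For Nefm they were Nefh (r = 0.92), Susd2 (0.88) and Ina (0.88), so 2 of its 3 nearest genes were members. For Nefh they included Vamp1, a synaptic vesicle fusion protein of fast synapses (0.94), and Vps37c, an endosomal sorting subunit (0.93). For Ina they were Npas1, a transcription factor of interneurons (0.94), Lrrn2 (0.94) and Tada3, a subunit of histone acetyltransferase complexes (0.93). For Prph they were Srsf4, a splicing factor (0.86), Sncg, gamma-synuclein (0.85), and Slc18a3, the vesicular acetylcholine transporter (0.84). For Nefl they were Inhbb, an inhibin subunit (0.75), Rmdn2 (0.72) and Rassf4 (0.72). Without both P70 replicate 5 mice these values were 0.63 to 0.80, and they stand as descriptions over 20 mice that share libraries.

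Around the filaments, 36 further genes were followed. They were genes of proteins that cross-link, move, modify or remove neurofilaments, 2 that bind their mRNA, and 9 other intermediate filament genes. With age, 7 of 36 rose and 0 fell in WT, and 3 of 36 rose and 0 fell in KO, against 4.62% and 3.78% of all genes that rose. These counts became 11 and 2 in WT and 8 and 3 in KO without both P70 replicate 5 mice. Of 17644 genes in WT, 1569 rose and 1431 fell in that setting (17.0% called). In KO, 1864 rose and 1895 fell of 17654 genes (21.3% called). Between genotypes, 0 of 36 passed the threshold at either age by limma, and 0 of 36 had an unadjusted p under 0.05. The cross-linkers, giant proteins that tie intermediate filaments to microtubules and actin, held 2 of 3 genes that rose in both genotypes. Plec, the plectin gene, went from 6074 ± 923 to 8962 ± 670 normalized counts in WT, a log2 difference of 0.57 (adjusted p = 0.0032 by limma), and rose by 0.51 in KO (adjusted p = 0.0037 by limma). Macf1 rose by 0.22 in WT and 0.23 in KO, whereas Dst had a difference of 0.12 and 0.09 that did not pass.

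Of 8 axonal transport genes, 2 rose in WT and 0 in KO. Kif5a, a kinesin heavy chain that carries neurofilaments, rose by 0.30 in WT (adjusted p = 0.0152 by limma) and had 0.21 in KO (adjusted p = 0.0826 by limma), and Klc2, a kinesin light chain, rose by 0.28 in WT and had 0.26 in KO. Kif5b passed in neither genotype (0.36 and 0.23). Once the replicate 5 mice were left out, 3 of these 8 genes rose in each genotype, with Kif5a (0.30 and 0.22), Klc2 (0.20 and 0.17) and Kif5b (0.50 and 0.44) past the threshold in both. Among 4 genes of turnover and folding, Hspb1, a small heat shock protein that binds neurofilament subunits, rose in both genotypes, by 1.22 in WT (142 ± 24.7 to 349.9 ± 129.8 normalized counts) and by 1.03 in KO. Trim2, a ubiquitin ligase that targets the light chain, had 0.26 in WT and 0.21 in KO without passing, but passed in both once the replicate 5 mice were left out (0.35 and 0.32, adjusted p = 0.00075 and 0.00078 by limma). Of 10 kinases, phosphatases and isomerases that act on the side arms, 0 passed with age in either genotype by limma (2 in WT and 1 in KO had an unadjusted p under 0.05), with Ppp2ca at -0.21 in both and Cdk5r2 at -0.09 in WT. When the replicate 5 mice were left out, 2 fell in WT and 3 in KO. Ppp2ca was then at -0.17 and -0.16 (adjusted p = 0.0356 and 0.0131 by limma), and Cdk5r2 at -0.15 and -0.19 (adjusted p = 0.0486 and 0.0060 by limma). Of 2 proteins that bind neurofilament mRNA, Tardbp and Arhgef28, 0 passed by limma or had an unadjusted p under 0.05 in either genotype (-0.10 and -0.09 in WT). Of 9 other intermediate filament genes, 2 rose in WT, Synm by 0.29 and Lmna by 0.33, and 0 in KO, and Lmnb2 had 0.28 in both without passing. Leaving out the replicate 5 mice, 3 rose in WT, where Lmnb2 passed at 0.19, and 1 in KO, Synm by 0.17. Whether these age effects differ between genotypes was tested by the interaction term, which 0 of the 36 passed by limma, with 0 at an unadjusted p under 0.05.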

How the data were processed

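RNA-seq of whole brain from 20 mice was analysed. As the authors describe, TruSeq v2 poly-A libraries were sequenced as pairs of 100 bases, quantified on GRCm38 with Salmon 1.1.0, imported with tximport and normalized with DESeq2 (1.26.0 in R 3.6.2 per the labels, where the methods text gives other versions). The deposited values are DESeq2-normalized counts, a scaled signal and not whole reads, so no count model was run on them. Of 19463 gene identifiers 19447 had a symbol, and rescaling by median of ratios gave the same factor in all mice.

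Genes with a mean of at least 10 in the mice compared were tested on log2(value + 1) with limma 3.58.1 (R 4.3.3, empirical Bayes with an intensity trend, Benjamini-Hochberg, 0.05). A fold change on this scale understates the change of low genes. Single genes and the 12 ratios were also tested by exact two-sided permutation (smallest p 0.00794 for 5 against 5), and correlations by 100000 permutations within groups. The steps were tested on simulated data. Levels per kb use the principal transcript of GENCODE M21. Fragment totals were estimated from the spacing of low values and cover counting error only. The members, the 6 lists of partner genes (among them the other intermediate filaments) and the 14 marker lists were chosen with earlier results of these data known. All 5 members are named, then up to 3 genes of each partner list and up to 2 of each marker list by smallest p for P70 against P21 in WT, the 3 genes most correlated with each member, and Katnal2. Some results under this rule are not reported here. Replicates are separate mice. Alternatives were other pseudocounts (0.5, 10), filters (none, 100) and scalings, limma without the trend, a joint fit of the 4 groups, the replicate number as a block, each mouse left out, and both P70 replicate 5 mice left out, the last chosen with the data known.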

Additional observations from a re-analysis of the deposited data

Results flagged for a closer look

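In the 20 combinations of 5 genes and 4 groups, 5 held a mouse whose gap to its nearest neighbour exceeded 0.71 of the range of the group (the 95% limit of Dixon's test for 5 samples), where chance gives about 1 in 20. All 5 were the highest mouse of a P70 group and all were replicate 5. In P70 KO, Nefm was at 12704.9 normalized counts with the next mouse at 9329 (0.736 of the range), Nefh at 6523.04 with the next at 3976 (0.806), Ina at 8551.59 with the next at 7049 (0.726) and Prph at 242.655 with the next at 86.2 (0.9). In P70 WT, Nefh was at 5190.85 with the next mouse at 4025 (0.728). The 4 KO values come from a single brain and are therefore not independent flags. Nefl had no such mouse in any group.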

How the results depend on the processing

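Under other pseudocounts, filters, scalings, limma without the trend and a joint fit, the 5 members kept their side of the threshold in every comparison. Signs turned only for values near 0 under quantile normalization: Ina between genotypes at P70 (0.00069), Nefh with age in KO (-0.016) and Nefh to Nefl with age in KO (-0.0061). Ina to Nefl with age was 0.18 in WT and 0.080 in KO under that setting, no longer past the threshold. The cause was not tested.

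Without both P70 replicate 5 mice, the genes called numbered 1 between genotypes at P70, 3000 with age in WT and 3759 with age in KO, and 2 members were called in KO. Between genotypes at P70 Nefm was -0.0075 and Nefh -0.054, Nefh with age in KO was -0.16, and the interaction of Nefl was -0.028. The ratios with age became 0.14 for Ina to Nefl in WT (threshold lost), -0.24 for Nefm to Nefl in KO (threshold passed) and -0.12 for Nefh to Nefl in KO.

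With each mouse left out in turn, genes called ranged from 0 to 1 between genotypes at P21 (1 without KO replicate 4 or WT replicate 3), 912 to 3000 with age in WT (912 without P21 WT replicate 4, 3000 without P70 WT replicate 5) and 896 to 3759 with age in KO (896, 943 and 957 without P21 KO replicates 4, 1 and 2, and 3759 without P70 KO replicate 5), and members called in KO from 0 to 2. KO against WT at P70 ranged from -0.051 to 0.11 for Nefm, -0.15 to 0.11 for Nefh, -0.075 to 0.036 for Ina and -0.34 to 0.15 for Prph. With age in KO the range was -0.037 to 0.0058 for Nefl, -0.28 to -0.12 for Nefm, -0.16 to 0.082 for Nefh and -0.85 to -0.40 for Prph. The interaction ranged from -0.013 to 0.041 for Nefl and -0.15 to 0.016 for Nefm. Between genotypes, Ina to Nefl ranged from -0.0073 to 0.042 at P21, and at P70 Nefm to Nefl from -0.098 to 0.057 and Nefh to Nefl from -0.19 to 0.064. With age, Ina to Nefl ranged from 0.14 to 0.22 in WT and 0.059 to 0.12 in KO. It lost the threshold in 4 of 10 settings in WT and in 5 of 10 in KO, all 5 without a P21 KO mouse. In KO, Nefm to Nefl with age ranged from -0.24 to -0.10 and Nefh to Nefl from -0.12 to 0.080.

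With the replicate block, genes called were 0, 0, 1265, 913 and 0 (genotype at P21 and P70, age in WT and KO, interaction), and 0 members. Same-numbered mice had correlated deviations of -0.01 to 0.26 at P21 and 0.07 to 0.71 at P70 between genotypes, and -0.12 to 0.16 between ages, so not every pair exceeded 0.1 and the number was not taken as a pairing. As a hint from the data, 3 of 5 mice at P21 and 4 of 5 at P70 correlated best with their own number between genotypes. Depth limits Prph most.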

Other observations

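Marker lists of other cell types and regions moved with age to different extents. Of all genes, 9.32% were called with age in WT and 8.32% in KO. Without both P70 replicate 5 mice these shares were 17.0% and 21.3%. All 10 myelin genes fell from P21 to P70 in both genotypes. The log2 difference was -1.44 in WT and -1.64 in KO for Mog, a glycoprotein of the outer myelin surface, and the summed myelin level went from 406845 to 597549 normalized counts over both P21 groups to 155239 to 204082 at P70. Of 13 genes of immature neurons 9 fell in WT and 7 in KO, with Marcksl1 at -1.32 and Tubb2b at -0.54 in WT on that scale. All 5 blood genes fell in WT and 4 in KO (Hba-a1 at -2.11 and Hba-a2 at -2.09 in WT), and 2 of 7 endothelial genes fell in WT and 1 in KO (Kdr at -1.32 and Slco1a4 at -0.70 in WT). When both P70 replicate 5 mice were left out, 10 myelin genes fell in each genotype, 10 immature neuron genes fell in WT and 9 in KO (where 1 rose), 5 blood genes fell in each, and 3 endothelial genes fell in WT and 2 in KO (where 1 rose).

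Of 15 genes of fast-firing and large-calibre neurons, the class in which neurofilaments are most abundant, 3 rose in WT and 1 in KO, with Hapln4, a perineuronal net link protein, higher by 0.48 and Scn4b, a sodium channel subunit, by 0.36 in WT. Leaving out both P70 replicate 5 mice, 3 rose and 0 fell in WT, but 1 rose and 3 fell in KO. Of 10 pan-neuronal genes 1 rose in each genotype (Snap25, by 0.25 in WT and 0.29 in KO), and Syp, at -0.20 in WT, did not pass. With those 2 mice left out 1 rose and 1 fell in WT and 1 rose and 4 fell in KO, and Syp fell in both (-0.25 and -0.24, adjusted p = 0.00247 and 0.00142 by limma). Of 8 cerebellar genes 1 rose and 1 fell in WT (Itpr1 at 0.46 and Cbln1 at -0.30) and 4 fell in KO, and of 8 choroid plexus genes 1 rose in WT (Kl by 0.69, with Clic6 at 0.47 not passing) and 0 in KO. By limma, 0 of 8 astrocyte genes (Gjb6 at -0.28 and Slc1a3 at -0.15 in WT) and 0 of 8 microglial genes (P2ry12 at -0.41 in WT) passed in either genotype, and an unadjusted p under 0.05 was reached by 2 astrocyte and 1 microglial genes in WT and by 1 and 0 in KO. With all mice, the Hox list had 0 called with age (Hoxa4 at -0.55 and Hoxc4 at -0.66 in WT), the motor neuron list 1 lower in KO (Slc5a7 at -0.43, with Slc10a4 at -0.34 in WT), and the sensory neuron list (Avil at 0.41 and P2rx3 at 0.14 in WT) and the pituitary list (Tshb at -0.85 and Cga at -1.02 in WT) 0. With the 2 mice left out, 1 cerebellar gene rose and 1 fell in WT and 1 rose and 5 fell in KO, 3 choroid plexus genes rose in each genotype, 1 astrocyte gene rose in each and 1 (Gjb6) fell in KO, 7 of 12 Hox genes fell in KO and 0 of 6 in WT, 1 motor neuron gene fell in WT and 3 in KO, 1 pituitary gene rose in KO, and 0 microglial and 0 sensory neuron genes passed by limma (2 microglial genes in WT had an unadjusted p under 0.05). Between genotypes, 0 genes of the 14 marker lists passed by limma at either age, and 18 of 122 tested at P21 and 2 of 116 at P70 had an unadjusted p under 0.05, against 2.44% and 1.13% of all genes. At P21 these were 5 of 5 blood genes (lower in KO, median -0.75), 4 of 13 Hox genes (median 0.81), 4 of 15 fast-firing neuron genes (median 0.10), 2 of 8 choroid plexus genes (median 0.28), and 1 gene each of the immature neuron, motor neuron and cerebellar lists. Hox genes of low level could enter through the higher P21 KO values alone, so a higher KO value was favoured in the Hox count and median.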
